A study of Mus musculus with 12 samples.

Results

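DNA methylation was followed at the loci of 9 interferon-stimulated genes, of 21627 protein-coding genes in the gene table: Parp14, Parp9, Dtx3l, Oasl1, Oasl2, Irf7, Irf9, Stat2 and Isg15. For each gene every CpG from 5 kb outside one end of the gene body to 5 kb outside the other was taken if it had at least 10 methylation calls in all 12 libraries. That gave 321 CpGs for the 9 regions, and 29 tiles of 1000 bp with at least 3 CpGs reach into these regions. The genes were chosen by the methylation difference between CD11b-positive treated cells and PBS cells at a tile inside Parp14 and at other interferon genes. Values of that comparison are therefore a description. No p-value is given for the members in it, and where genes or tiles that met the call rule are counted in it, nothing is read from the count.

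Reduced representation bisulfite sequencing, which reads methylation at single CpGs on CpG-rich restriction fragments, was done on DNA of CMM cells. These are GFP-marked mouse leukaemia cells, studied as inv(16) acute myeloid leukaemia and engrafted by vein into C57BL/6 mice. Treatment began when roughly 1% of blood cells carried GFP. It consisted of 3 injections into a vein on alternate days, of CpG-STAT3dODN or of PBS, and the spleen was removed 1 day after the last of them. CpG-STAT3dODN joins a CpG oligonucleotide, a ligand of the sensor TLR9, to a decoy DNA for the transcription factor STAT3. Sorting gave 3 groups of 4 libraries each: GFP-positive CD11b-positive cells of treated mice, GFP-positive CD11b-negative cells of treated mice, and GFP-positive cells of PBS mice, which were not divided by CD11b, a myeloid surface integrin. In comparisons with PBS cells, treatment and sorting by CD11b therefore cannot be told apart. The stated question concerned DNA methyltransferases in the CD11b-positive subset, set against each of the other groups. Nothing in the labels ties each library to an animal of its own, so the p-values reflect how much these libraries vary, which may be technical.

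Type I interferon acts through a receptor whose kinases phosphorylate STAT2. STAT2 acts with IRF9 in the complex ISGF3, which binds the interferon-stimulated response element (ISRE) near the start of target genes. IRF7 drives interferon production downstream of TLR9 and is itself an interferon target. Methylation of CpGs at a gene's start goes with silencing, while CpGs inside gene bodies are usually methylated whether or not the gene is used. Methylation says nothing directly of how much RNA a gene makes, and expression was not analysed here.

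RefSeq promoter sequences (GRCm38.p6, the assembly of mm10, 250 bases before to 50 after the start) were found for 7 of the 9 genes, all but Parp14 and Parp9, and 3 are shown. The Dtx3l promoter (chr16:35938978-35939277, minus strand) is the 1 in which most CpGs were measured, and capitals mark its 13 measured CpGs of 17. In the promoters of Isg15 (chr4:156200769-156201068, minus strand) and Stat2 (chr10:128270248-128270547, plus strand) capitals mark matches to the ISRE core, GAAA followed by NN and a further GAAA, searched on both strands.
Dtx3l: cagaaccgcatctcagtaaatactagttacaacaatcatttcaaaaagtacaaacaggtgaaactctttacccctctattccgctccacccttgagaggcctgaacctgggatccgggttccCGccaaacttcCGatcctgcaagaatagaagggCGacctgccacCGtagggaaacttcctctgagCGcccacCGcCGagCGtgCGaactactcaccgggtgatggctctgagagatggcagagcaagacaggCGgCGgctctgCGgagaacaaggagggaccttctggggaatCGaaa
Isg15: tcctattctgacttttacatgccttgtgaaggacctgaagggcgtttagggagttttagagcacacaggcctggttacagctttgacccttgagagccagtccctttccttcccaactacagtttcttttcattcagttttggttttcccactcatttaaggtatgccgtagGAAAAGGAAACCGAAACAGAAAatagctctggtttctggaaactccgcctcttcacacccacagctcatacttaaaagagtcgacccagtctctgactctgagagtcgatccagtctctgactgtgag
Stat2: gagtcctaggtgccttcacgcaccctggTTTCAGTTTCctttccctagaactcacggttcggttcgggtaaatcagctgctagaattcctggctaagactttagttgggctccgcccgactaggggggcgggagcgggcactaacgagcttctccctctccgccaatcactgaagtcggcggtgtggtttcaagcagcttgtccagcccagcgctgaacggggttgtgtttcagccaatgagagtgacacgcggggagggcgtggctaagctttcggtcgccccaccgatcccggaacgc
The 3 matches of Isg15 overlap and begin 78, 72 and 66 bases before the start, and the match of Stat2 begins 222 bases before it on the reverse strand. The core occurred in 3.49% of the 27025 RefSeq promoters. These letters are not in the windows of Dtx3l, Oasl1, Oasl2, Irf7 and Irf9, and the STAT motif TTCNNNGAA, found in 8.47% of promoters, is in none of the 7 windows.

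The libraries held 112671408 to 157223205 calls, and no 2 of them were identical among 66 pairs. The members' CpGs had median depths of 82 to 94 calls in CD11b-positive, 81 to 136 in CD11b-negative and 90 to 111 in PBS libraries. CD11b-negative library 2 stood apart from the other CD11b-negative libraries and was close to CD11b-positive library 2. Its mean methylation over all CpGs common to the 12 libraries was 35.5%, against 32.1 to 32.5% in the other 3, and it listed 6514712 CpGs, against 2956121 to 3809207. CD11b-positive library 2 had a mean of 35.9% and listed 6839766 CpGs, and over tiles the deviations of these 2 libraries from their group means correlated at 0.926. Those of PBS library 2 correlated at 0.775 with CD11b-negative library 2 and at 0.728 with CD11b-positive library 2. Whether the CD11b-negative library holds cells or DNA of the CD11b-positive sort was not tested. Calls on 8 single-copy Y-chromosome genes, a sign of DNA from male cells, also differed between libraries. Per 1000000 autosomal calls there were 25.0, 41.3, 23.8 and 23.8 in CD11b-positive, 12.9, 40.2, 11.1 and 8.64 in CD11b-negative and 5.52, 18.6, 8.25 and 11.0 in PBS libraries 1 to 4. The CD11b-positive and PBS ranges do not overlap (exact permutation test, two-sided, p = 0.0286, the smallest that 4 against 4 allows, and 0.171 adjusted over 6 tests). Results that rest on CD11b-negative library 2 are given with and without it.

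**Figure D1:**
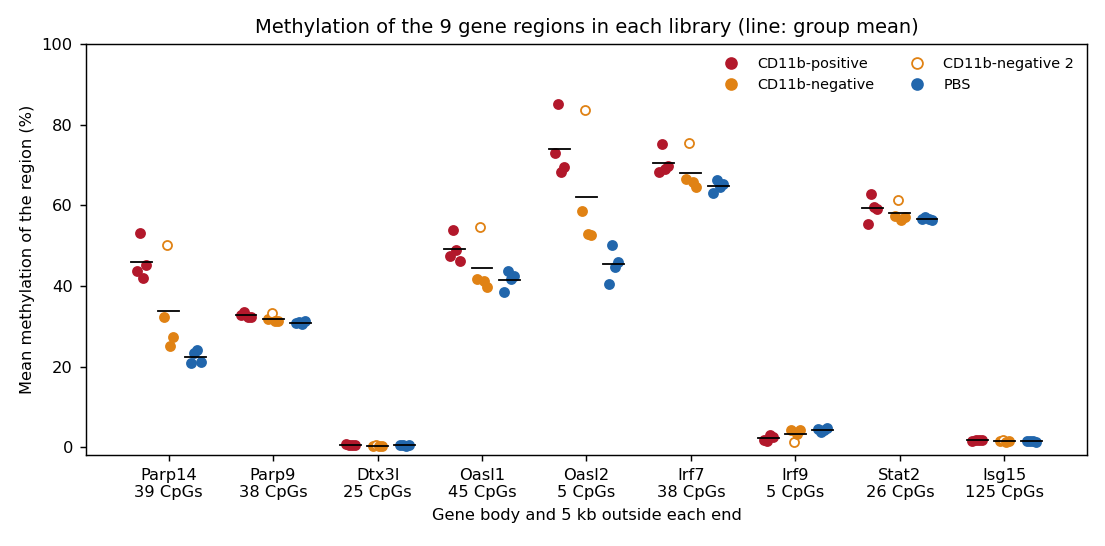
Mean methylation (%) of the 9 gene regions in each of the 12 libraries, 1 point a library, with a line at the group mean and CD11b-negative library 2 as an open circle. CD11b-positive libraries lie above all PBS libraries widely for Parp14 and Oasl2 and narrowly for Parp9, Oasl1, Irf7 and Isg15, and below them for Irf9. Dtx3l and Isg15 lie near 0 in all groups. The open circle lies among the CD11b-positive points for Parp14 and Oasl2 and level with the highest of them for Oasl1 and Irf7.

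The 9 regions were methylated at very different levels. The mean over CpGs in PBS cells was 0.487% for Dtx3l, 1.47% for Isg15 and 4.35% for Irf9, and it was 22.3% for Parp14, 30.9% for Parp9, 41.6% for Oasl1, 45.4% for Oasl2, 56.7% for Stat2 and 64.8% for Irf7. Coverage was as uneven. Only 5 of 234 listed CpGs of Oasl2 and 5 of 176 of Irf9 had enough calls in all libraries, against 125 of 294 for Isg15, none of which lies inside the Isg15 gene. All 25 CpGs of Dtx3l are shared with Parp9, since the 2 genes meet at their ends. CpGs just inside the depth threshold and just outside it had like levels. The 22 with 10 to 14 calls in their shallowest library averaged 34.0% in CD11b-positive, 34.8% in CD11b-negative and 33.8% in PBS cells, and the 35 with 5 to 9 calls averaged 33.2%, 30.7% and 31.3% in the same groups.

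Near their starts these genes, where measured, were almost free of methylation in all 3 groups, with Oasl1 as the exception. The measured Oasl1 CpGs near the start lie inside the gene, past its promoter window. Within 1 kb of the RefSeq start, 5 members had at least 3 CpGs, and 4 of them were under 5% in PBS cells, as were 73.3% of the 10864 gene starts measured. Dtx3l averaged 0.675% ± 0.0806 in CD11b-positive, 0.392% ± 0.146 in CD11b-negative and 0.487% ± 0.164 in PBS cells over 25 CpGs (SD, n = 4 each). Irf7 averaged 0.30%, 0.528% and 0.504% over 5 CpGs in the same order of groups, and Stat2 1.01%, 0.877% and 0.411% over 9 CpGs. The start of Irf9 averaged 2.24%, 3.24% and 4.35%, nearly all of it from 1 CpG described below.

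Parp14 encodes a mono-ADP-ribosyltransferase with macrodomains that is induced by interferon and known as a cofactor of the transcription factor STAT6. It had the widest spread between groups among the members after Oasl2. Its region (chr16:35826892-35876518, 39 CpGs) was methylated at 43.8, 53.2, 41.9 and 45.1% in CD11b-positive, 32.3, 50.1, 25.2 and 27.4% in CD11b-negative and 20.8, 23.3, 24.1 and 21.1% in PBS libraries 1 to 4. All CD11b-positive libraries and all CD11b-negative libraries lay above all PBS libraries, and CD11b-negative library 2 lay among the CD11b-positive ones. No overlap between CD11b-positive and PBS libraries was found in 7 of 9 member regions, against 67.6% of all gene regions. Between CD11b-negative and PBS libraries it was found in 3 of 9, against 10.9%. These counts are a description. CD11b-positive cells were 23.7 points above PBS cells (SE 2.61). CD11b-positive cells exceeded CD11b-negative cells by 12.2 points (SE 6.18, adjusted p = 0.242), and CD11b-negative cells exceeded PBS cells by 11.4 points (SE 5.71, adjusted p = 0.751), neither past the threshold in the quasi-binomial F test adjusted over 17319 gene regions. Without CD11b-negative library 2 the excess of CD11b-negative over PBS cells was 5.96 points (adjusted p = 0.408). A difference was called where the adjusted p was under 0.05 and the means differed by at least 10 points. Both of these comparisons share a group with the one that chose the genes, so no p-value in them, here or below, is independent of that choice.

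**Figure D2:**
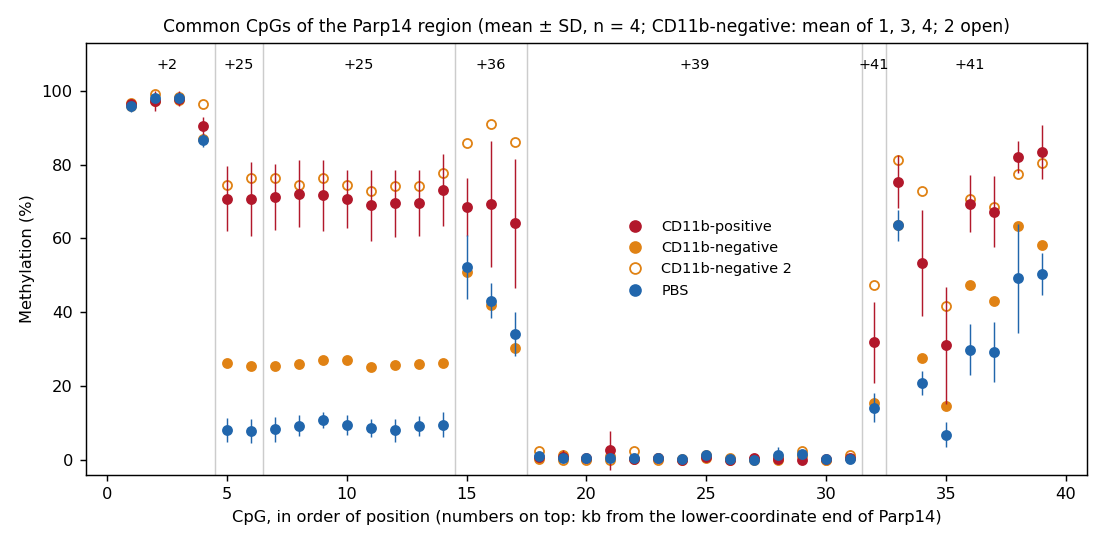
Methylation (%) of the 39 common CpGs of the Parp14 region in order of position, with distances from the lower-coordinate end of the gene in kb on top. Points are group means with the SD of 4 libraries for CD11b-positive and PBS cells, the mean of libraries 1, 3 and 4 for CD11b-negative cells, and library 2 as an open circle. The 10 CpGs at +25 kb separate the groups, while those at +2 kb are near 100% and those at +39 kb near 0 in every group.

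The 31 CpGs inside the Parp14 gene averaged 41.9% in CD11b-positive, 30.03% in CD11b-negative and 19.6% in PBS cells, and the 8 outside it averaged 61.7%, 48.1% and 33.0% in the same order. The tile chr16:35857001-35858000 holds 8 common CpGs between positions 35857043 and 35857148, 25.1 kb from the lower-coordinate end of the gene. They were methylated at 69.6, 81.9, 60.7 and 71.1% in CD11b-positive libraries, at 34.2, 75.1, 19.6 and 24.5% in CD11b-negative libraries and at 7.70, 8.88, 13.0 and 7.08% in PBS libraries. Every CD11b-positive library exceeded every PBS library by a wide margin, and the CD11b-negative libraries other than 2 lay between these groups without touching either. CD11b-positive and PBS libraries did not overlap in 11 of the 29 member tiles, against 55.7% of all tiles. The 2 CpGs just below the tile, at 35856992 and 35856995, averaged 70.7% each in CD11b-positive, 38.4 and 38.2% in CD11b-negative and 8.13 and 7.85% in PBS cells. CpGs this close are read together on the same molecules, so they are not separate measurements. Whether the CpGs are in an exon or an intron was not analysed here.

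In that tile CD11b-positive cells were 61.7 points above PBS cells (SE 4.55), the gain ranked 2 among 87020 tiles, which is how the tile was found. CD11b-positive minus CD11b-negative was 32.5 points (SE 13.3, unadjusted p = 0.0138, adjusted p = 0.386). Without CD11b-negative library 2 it was 44.8 points with adjusted p = 0.0181, in a fit that called 19.9% of all tiles. With the replicate number as a block the 32.5 points had adjusted p = 0.00215, with 12.9% of tiles called. The labels do not state this pairing, which was taken from these same data. Apart from number 2 (correlation 0.926), same-numbered libraries correlated no more than differently numbered ones. Results of the block, here and below, depend on that assumed pairing. CD11b-negative cells exceeded PBS cells by 29.2 points (SE 12.7, adjusted p = 0.487) and by 16.9 points without library 2 (adjusted p = 0.101). These tests are the quasi-binomial F test adjusted over all tiles tested. Each shares a group with CD11b-positive minus PBS, which chose the tile, so these p-values are not independent of that choice.

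Y-gene calls moved with the tile between groups, and CD11b-negative library 2 was high in both. With the share of Y calls as a further term, CD11b-positive minus PBS was 51.2 points, CD11b-positive minus CD11b-negative 17.4 points (adjusted p = 0.221) and CD11b-negative minus PBS 18.5 points (adjusted p = 0.0477). In the last of these fits 0.0977% of tiles were called. Both p-values come from comparisons that share a group with the one that chose the tile. Y calls did not overlap between CD11b-positive (23.8 to 41.3) and PBS libraries (5.52 to 18.6). In CD11b-negative libraries they were high in library 2 alone (40.2, against 8.64 to 12.9). The term, here and below, therefore cannot separate other cells' DNA from the group or from library 2. The part of other cells' DNA in the group differences was not tested.

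**Figure D3:**
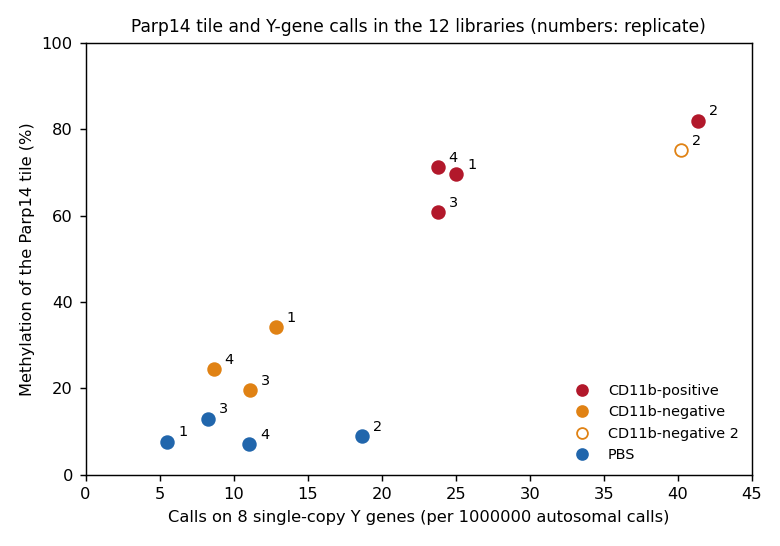
Methylation of the Parp14 tile (%) against calls on 8 single-copy Y genes per 1000000 autosomal calls, 1 point for each of the 12 libraries, numbered by replicate, with CD11b-negative library 2 open. The CD11b-positive libraries and CD11b-negative library 2 have at least 23.8 Y calls per 1000000 autosomal calls and at least 60.7% methylation, and the other libraries at most 18.6 Y calls per 1000000 autosomal calls and at most 34.2%.

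Elsewhere in Parp14 the levels depended on position. The tile from 35834001, near the lower-coordinate end, was at 95.5% in CD11b-positive, 95.3% in CD11b-negative and 94.7% in PBS cells. At the other end, 14 CpGs of the tile from 35871001 were at 0.561%, 0.611% and 0.649% in the same groups. Between them the tile from 35867001 was at 58.0, 87.8, 64.6 and 58.9% in CD11b-positive, 39.8, 87.6, 42.2 and 41.3% in CD11b-negative and 38.8, 50.9, 39.7 and 43.4% in PBS libraries. Here the CD11b-negative libraries other than 2 overlapped the PBS libraries. The tile from 35873001, outside the gene beyond its unmethylated end, was at 62.2, 78.1, 59.4 and 64.1% in CD11b-positive, 56.6, 70.4, 37.2 and 42.4% in CD11b-negative and 32.5, 36.3, 42.4 and 31.7% in PBS libraries. Both tiles were called in CD11b-positive minus CD11b-negative under the replicate block (14.6 points with adjusted p = 0.0215 and 14.3 points with adjusted p = 0.0108) and without library 2 (26.2 points with adjusted p = 0.0391 and 20.6 points with adjusted p = 0.0283).

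Parp9, an ADP-ribosyltransferase family member that works as a dimer with the ubiquitin ligase Dtx3l, differed little between groups. Its region was methylated at 32.8, 33.5, 32.4 and 32.3% in CD11b-positive, 31.9, 33.3, 31.2 and 31.2% in CD11b-negative and 30.8, 30.9, 30.5 and 31.2% in PBS libraries. The region joins 25 unmethylated CpGs at the end shared with Dtx3l to 13 methylated CpGs inside Parp9. In the tile from 35947001 the CpGs inside Parp9 were at 92.1% ± 3.31 in CD11b-positive, 88.8% ± 3.99 in CD11b-negative and 83.6% ± 1.68 in PBS cells (SD, n = 4 each). Dtx3l stayed under 1% in each library, with CD11b-positive 0.283 points above CD11b-negative cells. The 2 groups did not overlap in Dtx3l, at 0.606 to 0.791% in CD11b-positive and 0.261 to 0.583% in CD11b-negative libraries (adjusted p = 0.254), and 1.48% of all gene regions had no overlap in this comparison. In the promoter printed above, the 13 measured CpGs averaged 0.657%, 0.433% and 0.419% in CD11b-positive, CD11b-negative and PBS cells, and the highest single CpG mean was 2.26%.

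Of the transcription factors, Irf7 had a methylated surrounding and unmethylated CpGs within 1 kb of its start. Its region was at 68.3, 75.2, 69.1 and 69.7% in CD11b-positive, 66.4, 75.4, 65.9 and 64.6% in CD11b-negative and 63.1, 66.2, 64.5 and 65.2% in PBS libraries. CD11b-positive libraries all lay above PBS libraries, by 5.82 points in the mean (SE 1.70). These 2 groups had no overlap in 67.6% of all gene regions. Only 9 of the 38 CpGs lie in Irf7 itself, and those averaged 41.5%, 40.4% and 39.5% in CD11b-positive, CD11b-negative and PBS cells. The other 29 lie in the neighbours Cdhr5 and Phrf1. The tile with the widest difference, from 141269001, overlaps Cdhr5 and had 34.9, 56.0, 37.3 and 37.2% in CD11b-positive, 28.6, 58.5, 27.4 and 23.2% in CD11b-negative and 21.7, 30.9, 26.6 and 27.0% in PBS libraries. In both treated groups library 2 stood well above the other 3.

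Stat2, the interferon-specific partner of IRF9, had a region mean of 59.2% in CD11b-positive, 58.0% in CD11b-negative and 56.7% in PBS cells. CD11b-positive cells were 2.54 points above PBS cells, and 6.02 points where CpGs needed at least 20 calls. The 22 CpGs inside the gene averaged 54.7%, 55.1% and 54.3% in the same order. The 4 CpGs outside it, in the neighbours Apof or Il23a, averaged 84.4% ± 6.41, 73.8% ± 9.40 and 70.2% ± 2.56 (SD, n = 4 each). Without library 2 the CD11b-negative mean of these CpGs was 69.2%, not above PBS cells. The adjusted p for CD11b-positive minus CD11b-negative over the whole Stat2 region was 0.242.

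Irf9, which gives ISGF3 its DNA binding, was the member with a lower level in CD11b-positive than in PBS cells. Of its 5 CpGs, 4 lie in the gene and averaged 0.449%, 0.208% and 0.170% in CD11b-positive, CD11b-negative and PBS cells. The difference came from the CpG at 55603571, upstream of the start and within the neighbouring gene Rnf31. It was at 9.09, 4.47, 13.8 and 10.2% in CD11b-positive, 19.4, 5.88, 16.1 and 20.1% in CD11b-negative and 21.4, 19.2, 21.9 and 21.8% in PBS libraries. All CD11b-positive libraries lay under all PBS libraries, and CD11b-negative library 2 lay among the CD11b-positive ones. A single CpG carries no test here, and for the region of 5 CpGs the difference CD11b-positive minus CD11b-negative was -1.0 points with adjusted p = 0.861, and -1.69 points without CD11b-negative library 2 (adjusted p = 0.473).

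Among the effectors, Oasl2, an oligoadenylate synthetase-like protein, had the widest group difference of the 9 regions. Its 5 CpGs averaged 73.1, 85.2, 68.3 and 69.4% in CD11b-positive, 58.6, 83.6, 53.0 and 52.5% in CD11b-negative and 40.6, 50.1, 44.7 and 46.0% in PBS libraries. CD11b-positive cells were 28.6 points above PBS cells (SE 4.35), and no library of either treated group reached down to a PBS library. Of all gene regions, 67.6% had no overlap with PBS libraries for CD11b-positive and 10.9% for CD11b-negative libraries. The CpG at 114895112, below the gene, was at 62.7, 65.4, 46.9 and 47.8% in CD11b-positive, 31.3, 64.7, 22.0 and 20.7% in CD11b-negative and 10.6, 16.8, 14.4 and 15.7% in PBS libraries. The 4 CpGs inside the gene averaged 78.5%, 68.7% and 53.1% in CD11b-positive, CD11b-negative and PBS cells. CD11b-positive minus CD11b-negative was 12 points over the region (SE 8.32, adjusted p = 0.242), and 19.3 points without CD11b-negative library 2 (adjusted p = 0.0161). With Y calls as a further term it was 2.13 points (adjusted p = 0.837).

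Oasl1, which in mouse restrains translation of Irf7, was the measured gene with methylation within 1 kb of its start. None of the 8 CpGs in its promoter window was measured. The 7 measured CpGs near the start lie past that window, inside the gene. Methylation of the promoter itself is therefore not known. The 7 CpGs in the tile from 114923001 were at 23.9, 23.7, 23.5 and 19.7% in CD11b-positive, 12.3, 26.0, 19.3 and 12.9% in CD11b-negative and 8.46, 14.5, 12.5 and 14.2% in PBS libraries. All CD11b-positive libraries lay above all PBS libraries, while the CD11b-negative libraries overlapped both groups. Of all tiles, 55.7% had no overlap between CD11b-positive and PBS libraries. A gain of at least 10 points over PBS cells, as here, was seen at 4.97% of all gene starts, taken as the same windows of 1 kb on each side. At the far end of the gene the tile from 114937001 had 84.2, 95.7, 84.3 and 78.6% in CD11b-positive, 74.4, 97.2, 67.9 and 69.8% in CD11b-negative and 67.9, 75.0, 74.3 and 74.1% in PBS libraries. The Oasl1 region as a whole was at 49.1% ± 3.37 in CD11b-positive, 44.4% ± 6.87 in CD11b-negative and 41.6% ± 2.24 in PBS cells (SD, n = 4 each). Without library 2 the CD11b-negative mean of the region was 41.0%, not above PBS cells.

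Isg15, a ubiquitin-like protein joined to other proteins after interferon, could be followed only around the gene. Its 125 CpGs, of which 102 lie in Agrn or Perm1, averaged 1.70% in CD11b-positive, 1.60% in CD11b-negative and 1.47% in PBS cells. Of these CpGs 124 were under 20% in PBS cells and 1 over 80%. The tile from 156194001, in Agrn, which runs past the edge of the region, was at 85.1% ± 5.77, 78.0% ± 3.72 and 76.7% ± 4.50 in the same groups (SD, n = 4 each). Without library 2 the CD11b-negative mean of the tile was 76.4%. The promoter printed above, with its 3 ISRE matches, had no CpG that passed the depth minimum.

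**Figure D4:**
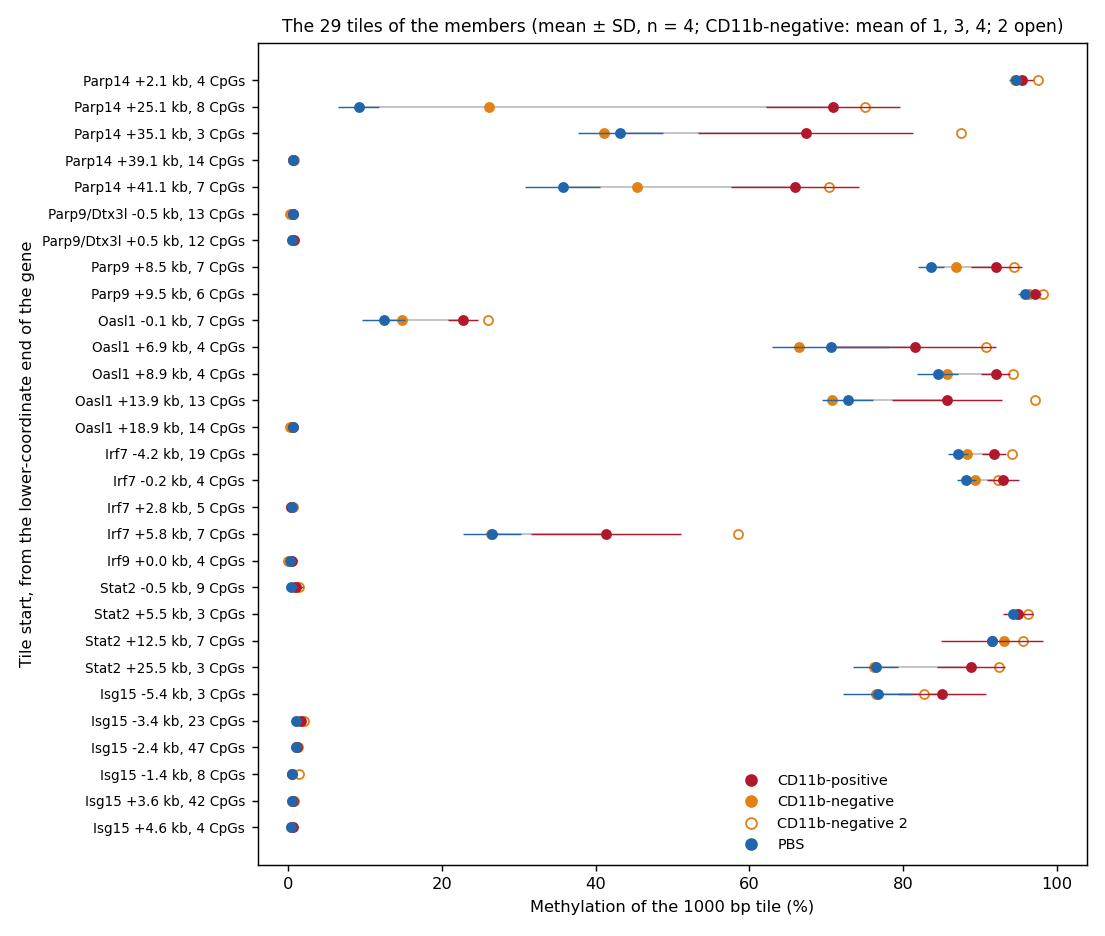
Methylation (%) of the 29 tiles of the members, named by gene and by the distance of the tile start from the gene's lower-coordinate end. Points are means with the SD of 4 libraries for CD11b-positive and PBS cells, the mean of libraries 1, 3 and 4 for CD11b-negative cells, and library 2 as an open circle. Tiles under 5% in PBS cells are under 5% in all groups, and the Parp14 tile at +25.1 kb is the lowest of the others in PBS cells and far higher in CD11b-positive cells.

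Counted over the members, CD11b-positive minus PBS met the call rule in 2 of 9 regions (Parp14 and Oasl2), against 17.8% of all gene regions. In tiles the count was 7 of 29, against 36.0% of all tiles. This comparison chose the genes, so these counts are a description and no test of the members. With Y calls as a further term the rule was met in 0 of 9 regions and 1 of 29 tiles, against 0% of all gene regions and 0.125% of all tiles, and the differences were 16.2 points for Parp14 and 14.2 points for Oasl2. The median over the 9 regions was then 0.326 points, against 0.907 over all regions. The median difference was 2.54 points over the 9 regions and 1.93 points over all regions, and 0.834 points over the 29 tiles and 4.98 points over all tiles. In CD11b-positive minus CD11b-negative the test called 0 of 9 regions and 0 of 29 tiles, with 0% of all gene regions and 0% of all tiles called. Of the 9 regions 3 had an unadjusted p under 0.05, as had 20.5% of all regions and 10.9% of all tiles. edgeR's quasi-likelihood test called 0 regions and tiles as well, with an unadjusted p under 0.05 for 13.3% of regions and 3.41% of tiles. In CD11b-negative minus PBS it again called 0 of 9 and 0 of 29, against 0% of regions and tiles. An unadjusted p under 0.05 was found for 5.16% of regions and 9.92% of tiles by the quasi-binomial test and for 4.38% and 6.51% by edgeR, which called 0 too.

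Leaving out CD11b-negative library 2 changed the count for CD11b-positive minus CD11b-negative. The Parp14 region was then 17.7 points higher in CD11b-positive cells (adjusted p = 0.0108), and with Oasl2 it made 2 of 9 regions called, against 11.6% of all regions. In tiles 6 of 29 were called, against 19.9% of all tiles. Beside the 3 of Parp14 they were the Oasl1 tile from 114937001 (15.0 points), the Irf7 tile from 141269001 (14.9 points) and the Stat2 tile from 128296001, which overlaps Il23a, a cytokine subunit gene (12.6 points). The replicate block called 0 of 9 regions, with adjusted p = 0.0677 for Parp14 and 0.0699 for Oasl2 and 0.549% of all regions called. It called the 3 Parp14 tiles of 29, against 12.9% of all tiles.

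The starting level of a tile in PBS cells went with how far it differed. Of the member tiles, 14 were under 20% in PBS cells, and their median difference CD11b-positive minus CD11b-negative was 0.230 points, against 0.0310 points over the 25809 such tiles in all, and without CD11b-negative library 2 0.233 points, against 0.0472. The 7 tiles between 20 and 80% had a median of 8.53 points, against 7.0 points over 39640 tiles, and without library 2 15.0 points, against 11.3. The 8 tiles over 80% had 1.19 points, against 1.79 points over 21571 tiles, and without library 2 2.25 points, against 2.56. The Parp14 tile, at 9.17% in PBS cells, belongs to the first class.

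The wider interferon pathway was read from 75 genes, of which 63 had at least 3 CpGs in their region. In CD11b-positive minus PBS 11 of the 63 were called higher and 1 lower, against 14.3% and 3.51% of all gene regions. The list holds the 9 members and interferon genes were chosen by this comparison, so these counts too are a description. The 4 highest were Ifit2, which binds viral RNA (31.6 points), Oasl2, Parp14 and the membrane protein Ifitm1 (20.3 points). Gbp3, a guanylate-binding protein, differed by -23.0 points, at 29.6% ± 5.23 in CD11b-positive and 52.6% ± 1.21 in PBS cells (SD, n = 4 each). The regions of Ifit2 and Gbp3 rest on 4 CpGs each and that of Ifitm1 on 5, against a median of 48 over all gene regions. By role these were 9 of 42 effectors higher and 1 lower, 2 of 5 RNA and DNA sensors, 0 of 7 receptors and kinases and 0 of 9 transcription factors. The median difference over the 63 was 2.80 points, against 1.93 over all regions.

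In CD11b-positive minus CD11b-negative 0 of the 63 were called, and the median was 1.29 points, against 0.944 over all regions. Without library 2 the median was 2.40 points, against 1.51 over all regions. In that fit 8 were called higher and 1 lower, against 8.74% and 2.9% of all regions, among them Ifit2 (27.7 points), Oas3, a synthetase of the RNase L activator (18.4 points), and Gbp3 (-19.7 points). Under the replicate block 1 of the 63 was called, Gbp3, lower at 29.6% in CD11b-positive and 45.8% in CD11b-negative cells (adjusted p = 0.0484), against 0.346% of all regions called lower. In CD11b-negative minus PBS 0 of the 63 were called, with and without library 2. Of the 16 genes of the PARP family, Parp14 was called higher and Parp8 lower (-13.5 points) in CD11b-positive minus PBS, and 0 were called in both other comparisons. The first of these comparisons chose Parp14. Without library 2 both genes were called in CD11b-positive minus CD11b-negative, Parp8 with -12.4 points.

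**Figure D5:**
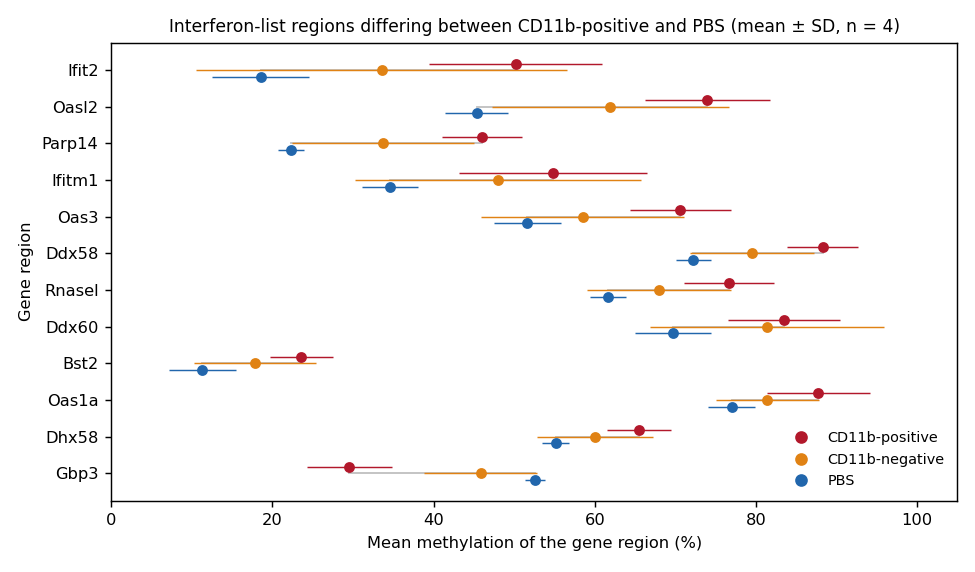
Mean methylation (%) of the 12 gene regions of the interferon list that differed between CD11b-positive and PBS cells by the call rule, as group means with the SD of 4 libraries, the difference running from the largest gain at the top to the loss of Gbp3 at the bottom. CD11b-negative means lie between the other groups for all 12, with wide error bars that include library 2.

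Marker genes of other blood cells also differed between CD11b-positive and PBS cells. In CD11b-positive minus PBS, where 14.3% of all regions were called higher and the median over all regions was 1.93 points, 4 of 4 measured monocyte and macrophage genes were called higher (median 16.2 points), 5 of 8 T cell genes (11.5 points), 3 of 7 B cell genes (5.49 points), 2 of 5 erythroid genes (6.57 points) and 2 of 5 neutrophil genes (8.56 points). The median level per library over the 4 measured monocyte and macrophage genes was 72.5 to 84.8% in CD11b-positive, 57.5 to 86.7% in CD11b-negative and 56.0 to 64.3% in PBS libraries. By list, the median level over genes in PBS cells ran from 34.7% (T cells) to 60.3% (monocytes and macrophages). Over all tiles between 20 and 80% in PBS cells, the median of CD11b-positive minus PBS exceeded that of each list but monocytes and macrophages. Whether marker genes differed more than other regions of like starting level was not tested. The part of other blood cells in the differences at interferon genes was not tested.

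Other tiles had nearly the same levels as the Parp14 tile in the 12 libraries. Over all tiles, 81 lay within 10 points of it by root mean square difference. Among the nearest inside protein-coding genes were tiles in Metap1d (5.73 points), Dhrs11 (5.99 points), Tbc1d8 (6.12 points) and Ikzf2 (6.13 points). The Metap1d tile was at 68.6% ± 9.39 in CD11b-positive, 37.6% ± 25.8 in CD11b-negative and 9.48% ± 4.39 in PBS cells (SD, n = 4 each), with CD11b-negative library 2 at 76.2%.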

How the data were processed

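Per the file headers and labels, each deposited file holds counts of methylated and unmethylated calls for each CpG cytosine and strand of 1 RRBS library, without normalisation. The submitters' processing notes name mm10 as the build and, as the authors' tools, methylKit 1.20.0, Bismark, cutadapt 2.7 and Trim Galore 0.6.4. How conversion was checked and whether duplicate reads were removed is not given in the sources used here, so 1 molecule may be counted several times.

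Strands were summed. Of 13236795 CpGs listed, 1052856, on X or an autosome, reached 10 calls in all 12 libraries (median 84 calls). They gave 87020 tiles of 1000 bp and 17319 protein-coding gene regions (RefSeq genes, GRCm38.p6, and 5 kb outside each end) with at least 3 CpGs. A level is the unweighted mean over CpGs. A tile that reaches into a member's region was taken whole. The 8 libraries of 2 groups were compared by a quasi-binomial logistic model with an F test. Its dispersion, at least 1, was moderated as in limma's squeezeVar. This was done separately for features under 5%, from there to 20%, 80% and 95%, and above. Adjustment was by Benjamini-Hochberg over all tiles or regions. A call needed adjusted p under 0.05 and a difference of means of at least 10 points. The step was tested on simulated data. Single values per library were compared by exact permutation tests. Python 3.11.15, numpy 2.4.6, pandas 2.3.3, scipy 1.17.1 and R 4.3.3 with edgeR 4.0.16 were used.

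The members, the lists (interferon, PARP family, T cell, B cell, erythroid, monocyte and macrophage, neutrophil, Y genes), the tests and the alternatives were chosen with earlier results of these data known. Named were all members with their regions, starts, most different tile and called tiles, up to 4 called genes per direction of the interferon and PARP lists, and the 5 tiles inside genes nearest to the Parp14 tile, of which 1 is not reported here. Other genes, tiles and CpGs in the text were chosen after their values were seen. Alternatives were minimums of 5 and 20 calls, edgeR, all 12 libraries in 1 fit, Y calls as a term, the replicate block, each replicate left out, a 20-point minimum, depth weighting and 1 kb flanks.

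The labels number replicates alike in all groups. Deviations from the group means over tiles correlated between same-numbered CD11b-positive and CD11b-negative libraries (0.150, 0.926, 0.651 and 0.678 for numbers 1 to 4), so the numbers were taken to pair these 2 groups, from the data and not from a statement in the labels. Differently numbered libraries correlated about as much (CD11b-positive 1 with CD11b-negative 4 at 0.208, 3 with 4 at 0.654 and 4 with 3 at 0.684), while every pair of number 2 with another number was negative. Of the same-numbered pairings with PBS libraries, those of number 2 were the highest (0.775 for CD11b-negative 2 and 0.728 for CD11b-positive 2). Others were under 0.1 (-0.125 for CD11b-negative 4 and -0.0982 for CD11b-positive 4), and PBS libraries were not taken as pairs.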

Additional observations from a re-analysis of the deposited data

Results flagged for a closer look

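Of 75 groups of 4 library values checked for a library far from the other 3, 9 were picked out, where chance gives about 1 in 20, and 4 of the 9 were CD11b-negative library 2. That library had 54.6% in the Oasl1 region, against 39.8 to 41.8% in the other CD11b-negative libraries, and 75.4% in the Irf7 region, against 64.6 to 66.4%. In the Irf7 tile from 141269001 it had 58.5%, against 23.2 to 28.6%. It had 40.2 Y-gene calls per 1000000 autosomal calls, against 8.64 to 12.9.

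CD11b-positive library 2 had 41.3 Y-gene calls per 1000000 autosomal calls, against 23.8 to 25.0 in the other CD11b-positive libraries. It had 56.0% in the Irf7 tile from 141269001, against 34.9 to 37.3%, and 95.4% in the Stat2 tile from 128296001, against 86.0 to 87.4%. CD11b-positive library 4 was the lowest within 1 kb of the Oasl1 start, with 19.7%, against 23.5 to 23.9%. PBS library 1 was the lowest in the Oasl1 tile from 114937001, with 67.9%, against 74.1 to 75.0%.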

How the results depend on the processing

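Of the counts of called members and list genes, 185 recomputed values stayed within 1.5 times the value reported and 16 did not. For CD11b-positive minus CD11b-negative, leave-one-out gave 0 to 2 member regions, 0 to 9 interferon genes, 0 to 2 PARP genes and 0 to 6 member tiles, the upper values without CD11b-negative library 2. With the replicate block 1 interferon gene and 3 member tiles were called, and the block changed no other count by over 1.5 times. With Y calls as a further term 1 member tile was called in CD11b-negative minus PBS, and in CD11b-positive minus PBS 0 member regions, 0 interferon genes, 0 PARP genes and 1 member tile. With that term the differences CD11b-positive minus CD11b-negative of the Irf7 tile from 141269001 (6.91 points) and the Oasl1 tile from 114937001 (8.39 points) were -4.45 and -0.588 points, not called with or without it, and the Stat2 region was at -0.958 points in CD11b-positive minus PBS. In that comparison a 20-point minimum left 5 interferon genes, 1 PARP gene and 3 tiles, all 12 libraries in 1 fit left 1 PARP gene, and leave-one-out gave 4 to 7 member tiles (4 without CD11b-positive library 2) and 9 to 13 interferon genes. The cause was not tested. Region means depend on which CpGs are deep enough: the Stat2 difference CD11b-positive minus PBS was 2.54 points, and 6.02 with at least 20 calls, and those of Oasl2 and Irf9 rest on 5 CpGs each.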
